A study of Mus musculus with 6 samples.

Results

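The genes described here are 9 chemokine receptor genes, Ccr2, Ccr4, Ccr6, Ccr7, Ccr8, Cxcr3, Cxcr4, Cxcr5 and Cxcr6, out of 39179 genes counted. They were taken by symbol as receptors known from T cells, with earlier results of these data known. All 9 passed the filter on low counts that left 13846 genes for testing. Transcripts were measured in mouse Th17 cells, the CD4+ T helper cells that make interleukin 17, in 6 libraries, 3 from cultures with 30 ng/mL desIgf1 and 3 from control cultures. desIgf1 is a shortened insulin-like growth factor 1 with little affinity for the IGF-binding proteins, and the comparison asks what it changes in Th17 cells. All 6 libraries came from splenic naive CD4+ T cells of C57BL/6 mice that carry reporters for Il17a (hCD2), Ifng (Thy1.1) and Foxp3 (GFP). Controls and treated cultures shared 5 days with soluble anti-CD3 at 5 µg/mL, irradiated splenocytes without CD4+ cells, IL-6 at 20 ng/mL, TGF-β at 2.5 ng/mL, anti-IFN-γ at 10 µg/mL and anti-IL-4 at 10 µg/mL. RNA was taken from sorted cells with the Il17a reporter and without the other reporters. The protocol text names desIgf1 for every library, so the groups rest on the titles, the descriptions and the series design. The sources used here do not give age, sex or how many mice stand behind a library.

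Chemokine receptors are G protein-coupled receptors with 7 membrane helices that couple mainly to inhibitory G proteins and steer cells along gradients of small secreted chemokines. T cells change their receptors as they differentiate: CCR7 brings naive cells into lymph nodes, CXCR5 leads helper cells to B cell follicles, and CCR2, CCR6 and CXCR6 serve entry into inflamed or barrier tissue. CCR6 is a defining receptor of Th17 cells, switched on with the lineage factor RORγt.

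Counts in genes summed to 34567899 to 47929948 per library, and the least covered member, Cxcr3, had 26 to 222 counts. The titles number the libraries 1 to 3 in each group, and same-numbered libraries deviated together from their group means, so differences are given within numbers and in a blocked fit, which gives each number a level of its own. The number 3 libraries stood apart from the other 4 on the first principal component (43.5% of the variance of log2 CPM, gene counts scaled to a common library size). Xist, the transcript of the inactive X chromosome, was at 1705 CPM in control 1 and 2219 CPM in desIgf1 library 1 and below 1 CPM in the other 4, where the Y-linked Ddx3y was at 97.1 to 128 CPM. T cell markers (7 of 7 tested) summed to 5574 to 5606 CPM in controls and 5483 to 6155 CPM with desIgf1. Monocyte and macrophage markers (5 of 8 tested), of interest because monocytes carry Ccr2, summed to 5.21 to 14.5 CPM in controls and 11.4 to 16.9 CPM with desIgf1, with Fcgr1 at 0 counts and Adgre1 at 6 or fewer. Dendritic cell markers (6 of 9 tested) summed to 72.5 to 111 and 107 to 153 CPM, nearly all from the class II genes H2-Ab1 and Cd74, with Xcr1 and Siglech at 0. B cell markers (3 of 6 tested) summed to 1.95 to 6.16 CPM in controls and 1.30 to 3.91 CPM with desIgf1. Cd8b1 was at 3.22 to 7.82 and 4.98 to 10.9 CPM, with Cd8a at 5 counts or fewer. NK cell markers (4 of 5 tested) summed to 7.69 to 13.0 and 8.05 to 11.5 CPM, with Ncr1 at 0, and of 6 neutrophil and 4 erythroid markers 0 passed the filter. The part of these other cells in the results was not tested. Of the genes of the sort, Il17a was at 66.0 to 109 CPM in controls and 125 to 159 CPM with desIgf1, Foxp3 at 0.237 to 1.80 CPM, and Ifng at 28 counts or fewer.

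Of the 9 receptor genes, Ccr2 rose with desIgf1 in the blocked fit, Cxcr6, Ccr8, Cxcr5, Ccr6 and Cxcr4 had higher values in each of the 3 pairs without passing the test, and Ccr4, Ccr7 and Cxcr3 went in different directions from pair to pair. Without the block, 0 of 9 passed an adjusted p of 0.05 (edgeR's quasi-likelihood test), as did 0 of all 13846 genes (0%), with 2 members at an unadjusted p under 0.05, Ccr2 and Cxcr5 (all genes 8.16%). DESeq2 without the block also called 0 members, against 1.46% of all genes. With the block, edgeR called 1 of 9, against 0.318% of all genes (0.181% higher). At an unadjusted p under 0.05 the blocked fit held 5 members, all higher, against 9.02% of all genes in that direction. The 6 members higher in all 3 pairs stand beside 20.9% of all genes, and the 3 with a blocked fold of at least 2, Cxcr6, Ccr2 and Ccr8, beside 2.38% (3.96% in either direction). The members' median log2 fold change with the block was 0.94, and that of all tested genes 0.00299. Because the members were chosen with earlier results of these data known, these shares and medians only describe them and do not test the set. In pairs 1, 2 and 3 the members' median difference was 0.77, 1.51 and 0.09 on the log2 scale. In the third pair Ccr2 and Cxcr6 still differed most among the genes higher in every pair, by 1.46 and 0.87.

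**Figure D1:**
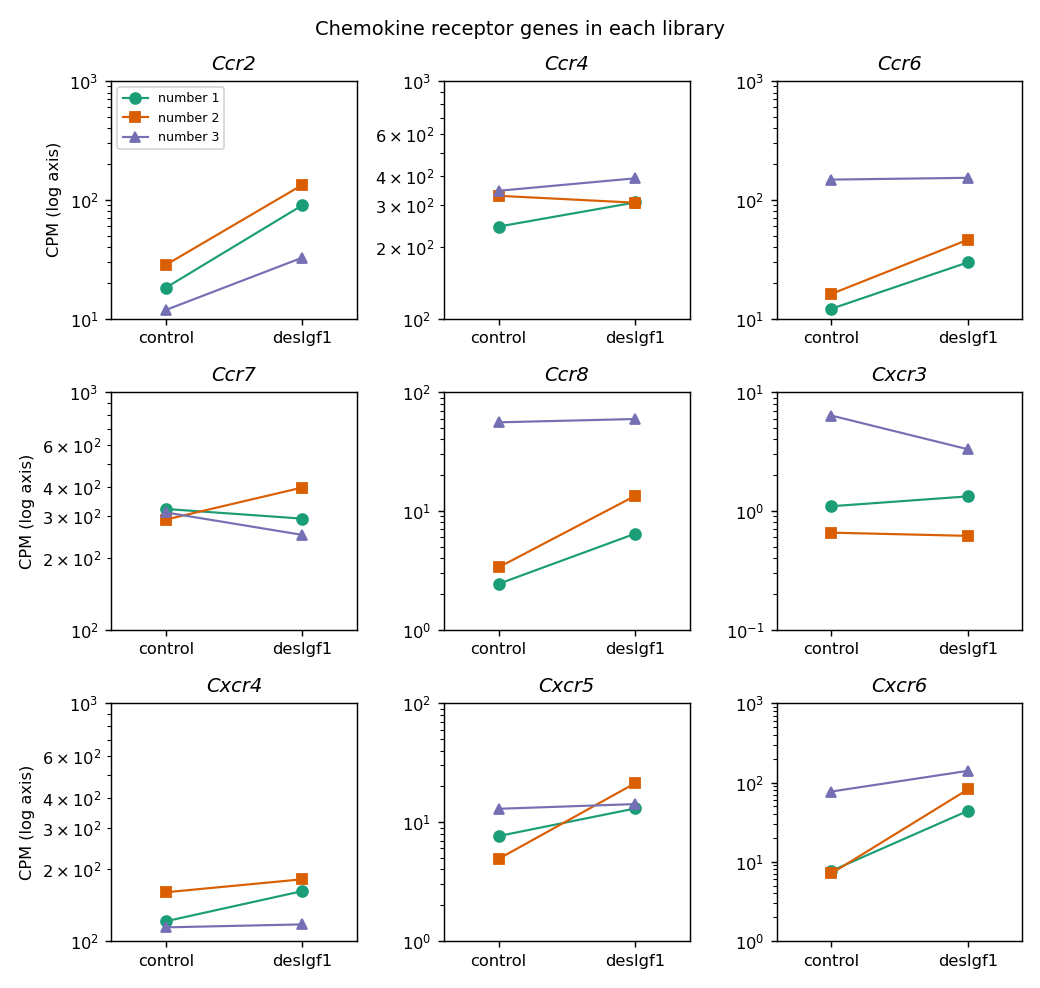
CPM of each receptor gene (log axis) in control and desIgf1 libraries; lines join libraries of the same number. Ccr2 has steep lines in all 3 numbers and no overlap of the groups, while Ccr6 and Ccr8 have steep lines in numbers 1 and 2 and a nearly flat line at a high level in number 3.

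Ccr2, the receptor for CCL2 and related chemokines that draws monocytes and effector T cells into inflamed tissue, lies on chromosome 9 (GRCm38, 124101950 to 124113557, plus strand). Controls 1 to 3 held Ccr2 at 18.2, 28.3 and 11.8 CPM, and their desIgf1 partners at 90.0, 134 and 32.6 CPM. Every desIgf1 library lay above every control, a separation in this direction that 7.31% of all tested genes share (13.5% in either direction), and among the members only Cxcr5 also showed. In each group number 2 was highest and number 3 lowest. Within numbers 1 to 3 the ratios of CPM were 4.95, 4.71 and 2.76. With the block Ccr2 rose 4.03-fold (log2 2.01 ± 0.19 SE, edgeR adjusted p = 0.0332), and without it the log2 fold change was 2.13 ± 0.54 (edgeR adjusted p = 0.406). Corrected for GC content and gene length, the blocked value was 1.85 ± 0.18 and no longer passed (edgeR adjusted p = 0.0583), and that fit called 0 of 9 members against 0.152% of all genes. Leaving out each number in turn gave blocked values of 1.86 to 2.27. Of the 6758 windows of 50 bases in its annotated transcripts, 129 also occur in transcripts of other genes, and reads that cannot be placed uniquely are not in these counts. The summed monocyte and macrophage markers were also lowest in number 3, at 14.5, 13.6 and 5.21 CPM in controls 1 to 3 and 16.0, 16.9 and 11.4 CPM with desIgf1, with 0 of 5 called, and their part in the Ccr2 difference was not tested. In bulk RNA, fewer cells with a transcript and less transcript per cell cannot be told apart, here and for each gene below.

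Cxcr6, the receptor for CXCL16 and a mark of tissue-resident and effector T cells, lies on chromosome 9 (123806475 to 123811760, plus strand), inside the body of Fyco1 on the other strand but with 0 exon bases shared. Its values were 7.65, 7.11 and 76.9 CPM in controls 1, 2 and 3, and 43.8, 81.7 and 140 CPM with desIgf1. Number 3 was highest in each group, so the groups overlapped, with control 3 above desIgf1 library 1. Within numbers the ratios were 5.73, 11.5 and 1.83. The blocked log2 fold change was 2.28 ± 0.50 and did not reach the threshold (edgeR adjusted p = 0.153, and 0.671 without the block). It was 1.63 without number 2 and 3.02 without number 3, and without the block it was 1.54, so its order relative to Ccr2 is not fixed. DESeq2 with the block called Cxcr6 (adjusted p = 0.0259), as it did Ccr2, Ccr6, Ccr8 and Cxcr5, 5 of 9 members against 4.38% of all genes. Limma voom with the block called 1 of 9, Ccr2, against 0.455% of all genes.

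Ccr6, the receptor for CCL20 that marks Th17 cells, lies on chromosome 17 (8236043 to 8257141, plus strand) with 9 annotated transcripts. Control libraries gave 12.1, 16.1 and 148 CPM, and desIgf1 libraries 29.8, 46.2 and 153 CPM. Number 3 libraries were far above the rest, by 10.5 times the mean of numbers 1 and 2 in controls and 4.04 times with desIgf1. Within numbers the ratios were 2.46, 2.86 and 1.04. The blocked log2 fold change was 0.94 ± 0.29 (edgeR adjusted p = 0.249), and without the block it was 0.38 ± 1.04 (edgeR adjusted p = 0.929).

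Ccr8, a receptor of Th2 cells, regulatory T cells and skin-homing T cells, lies on chromosome 9 (120092114 to 120094906, plus strand). It was at 2.43, 3.35 and 55.7 CPM in controls and at 6.43, 13.4 and 59.4 CPM with desIgf1. Its pattern over the libraries was that of Ccr6, with number 3 at 19.3 times the mean of numbers 1 and 2 in controls and 6.00 times with desIgf1. Ratios within numbers were 2.64, 3.99 and 1.07, and the blocked log2 fold change was 1.11 ± 0.36 (edgeR adjusted p = 0.276). Without the libraries of number 3, the blocked fit called 5 of 9 members, Ccr2, Cxcr6, Ccr8, Cxcr5 and Ccr6, with log2 fold changes of 2.27, 3.02, 1.71, 1.44 and 1.41, against 7.64% of all genes in that fit. Without number 1 or number 2 it called 1 of 9, Ccr2, against 0.513 and 4.42% of all genes. With 1 pair in number 3, whether that pair differs from the others cannot be tested.

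**Figure D2:**
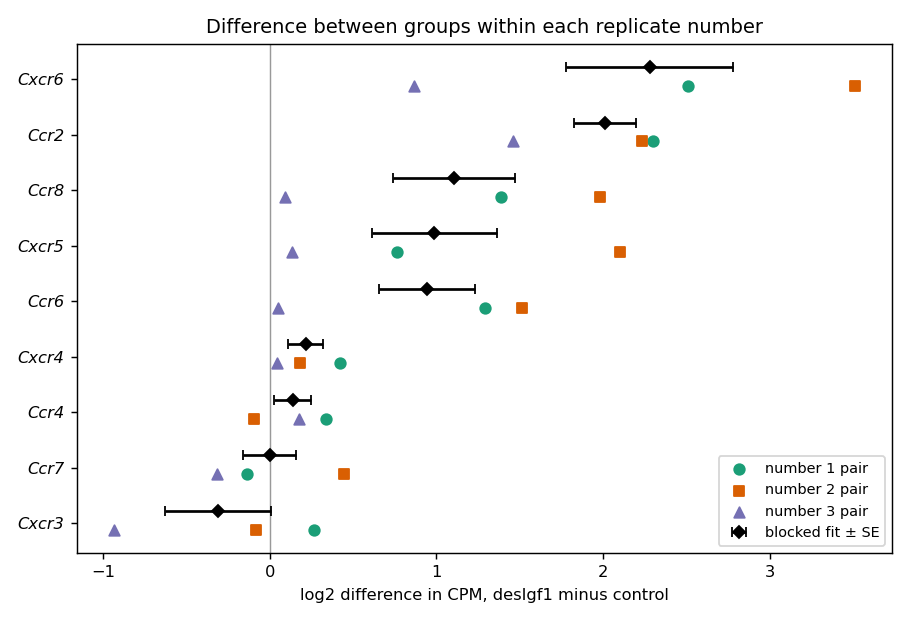
Differences between desIgf1 and control (log2 CPM, x axis) for each receptor gene within each replicate number, with the blocked fit and its standard error. For Ccr2, Cxcr6, Ccr8, Cxcr5, Ccr6 and Cxcr4 the number 3 pair lies nearest to 0. For Cxcr4, Ccr6 and Ccr8 that pair is at 0.04, 0.05 and 0.09.

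Ccr6, Ccr8 and Cxcr6 shared ratios above 2 in numbers 1 and 2 and high values in number 3, so the bases before their RefSeq starts (GRCm38.p6) are shown, ended before the first exon of any GENCODE transcript of the gene. They are chr17:8235793-8236042 for the first of 2 starts of Ccr6, chr9:120091883-120092113 for Ccr8 and chr9:123806227-123806474 for Cxcr6, all on the plus strand, written 5′ to 3′. Capitals mark matches, on either strand, to the motif letters AGGTCA (ROR), TTCNNNGAA (STAT), TGANTCA (AP-1), CACCC (KLF) and ACGTG (HIF).
Ccr6: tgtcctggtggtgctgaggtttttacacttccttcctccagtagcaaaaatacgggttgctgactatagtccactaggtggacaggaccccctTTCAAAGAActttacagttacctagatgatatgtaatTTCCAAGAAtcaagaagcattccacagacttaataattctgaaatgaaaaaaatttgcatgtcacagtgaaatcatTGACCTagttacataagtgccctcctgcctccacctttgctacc
Ccr8: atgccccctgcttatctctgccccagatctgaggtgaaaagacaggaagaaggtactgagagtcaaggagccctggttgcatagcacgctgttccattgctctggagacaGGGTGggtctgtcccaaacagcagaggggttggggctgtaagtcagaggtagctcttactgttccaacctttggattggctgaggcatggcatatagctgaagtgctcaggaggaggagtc
Cxcr6: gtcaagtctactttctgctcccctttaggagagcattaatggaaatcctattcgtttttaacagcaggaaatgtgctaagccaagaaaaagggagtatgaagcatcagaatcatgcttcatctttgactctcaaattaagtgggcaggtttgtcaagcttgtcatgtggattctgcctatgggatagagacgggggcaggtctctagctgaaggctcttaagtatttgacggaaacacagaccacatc
The Ccr6 window holds 1 ROR match and 2 STAT matches, letters found in 14 and 7.02% of all 32851 RefSeq windows of 250 bases. The Ccr8 window holds 1 KLF match (52% of all windows), and the Cxcr6 window holds 0 matches to the 5 motifs. For AP-1 and HIF the shares over all windows are 6.75 and 16.6%, and 0 of the 3 printed windows hold either. The window of the second Ccr6 start (8242276 to 8242525, not shown) holds 1 HIF match and 0 matches to the other motifs. These matches are letters in a window and do not show binding. The window before the start of Ccr2 lies mostly in an exon of another of its transcripts and is not shown, and it held 0 matches.

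Ccr7, the receptor for CCL19 and CCL21 that guides naive and central memory T cells into lymph nodes, lies on chromosome 11 (99144196 to 99155077, minus strand). It was at 322, 291 and 312 CPM in controls and at 294, 397 and 251 CPM with desIgf1. Library 2 was the highest of all 6 and the other desIgf1 libraries overlapped the controls or lay below them. Ratios within numbers were 0.911, 1.36 and 0.804, and the blocked log2 fold change was -0.00084 ± 0.16 (edgeR adjusted p = 0.998). Its sign is not stable, since it was 0.03 without the block.

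Cxcr5, the receptor for CXCL13 found on follicular helper T cells and B cells, lies on chromosome 9 (44511787 to 44561877, minus strand) and shares 3.3% of its exon bases with Bcl9l on the other strand. Whether the counting used strand is not stated, so reads from the shared bases cannot be assigned. It was at 7.63, 4.90 and 12.9 CPM in controls and at 13.0, 21.2 and 14.2 CPM with desIgf1. The groups did not overlap, but control 3 and desIgf1 library 1 nearly touched. Within numbers the ratios were 1.71, 4.33 and 1.10, and number 2 differed most. The blocked log2 fold change was 0.99 ± 0.38 (edgeR adjusted p = 0.324), and 0.45 without number 2.

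Cxcr4, the receptor for CXCL12 used in bone marrow homing and carried by most lymphocytes, lies on chromosome 1 (128588199 to 128592293, minus strand). It was at 121, 160 and 114 CPM in controls and at 162, 182 and 117 CPM with desIgf1. The order of the numbers was the same in each group and the ratios within them were 1.34, 1.13 and 1.03. The blocked log2 fold change was 0.22 ± 0.10 (edgeR adjusted p = 0.410).

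Ccr4, the receptor for CCL17 and CCL22 on Th2, Th17 and skin-homing T cells, lies on chromosome 9 (114490316 to 114504916, minus strand). It was at 244, 329 and 345 CPM in controls and at 308, 308 and 390 CPM with desIgf1, and the groups overlapped. Ratios within numbers were 1.26, 0.935 and 1.13, with a blocked log2 fold change of 0.14 ± 0.11 (edgeR adjusted p = 0.597).

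Cxcr3, the Th1 receptor for CXCL9, CXCL10 and CXCL11, lies on the X chromosome (101731535 to 101734269, minus strand). It was at 1.10, 0.657 and 6.36 CPM in controls and at 1.33, 0.617 and 3.31 CPM with desIgf1. The number 3 libraries were highest in each group, and the ratios were 1.21, 0.940 and 0.520. The blocked log2 fold change was -0.31 ± 0.32 (edgeR adjusted p = 0.689). Without control 3 the value without the block went from -0.61 to 1.0, so its direction rests on that library.

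Across libraries, the receptors differed in what their variation followed. Of the spread of log2 CPM over the 6 libraries, the treatment held 66.7% for Ccr2, 54.5% for Cxcr5 and 46.8% for Cxcr6. The median over all tested genes was 17.8%. For Cxcr6 the replicate number held almost as much as the treatment, 42.6%. The replicate number held 94.4% for Cxcr3, 85.0% for Ccr8, 83.7% for Ccr6, 74.7% for Cxcr4 and 69.6% for Ccr4 (median over all genes 44.8%). For Ccr7 neither did, with 33.2% in the number and 66.8% left over. Both number 3 libraries lay above the other 4 for Ccr4, Ccr6, Ccr8 and Cxcr3 (15% of all genes) and below them for Cxcr4 (12.5%).

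Per kilobase of annotated exon, Ccr7 was the most abundant member at 156 ± 8.12 CPM per kb in controls (SD, n = 3) and 159 ± 38.0 with desIgf1. Ccr4 followed at 98.9 ± 17.6 and 108 ± 15.2, then Cxcr4 at 72.9 ± 13.8 and 85.0 ± 18.2. Ccr7 did not overlap Ccr4 in either group, while Ccr4 and Cxcr4 overlapped in controls and with desIgf1. Ccr6 (25.3 ± 33.3 and 32.9 ± 28.9), Ccr8 (17.5 ± 26.0 and 22.5 ± 24.5) and Cxcr6 (15.8 ± 20.8 and 45.9 ± 25.2) came next with overlapping values, and number 3 was the highest library of each group for all of them. Within a library the order was steadier: Ccr6 was above Ccr8 in all 6, and Cxcr6 was below Ccr6 in the 3 controls and above it in the 3 desIgf1 libraries. Ccr2 was at 2.88 ± 1.23 in controls and 12.6 ± 7.49 with desIgf1, Cxcr5 at 2.55 ± 1.23 and 4.84 ± 1.33, and Cxcr3 at 1.56 ± 1.83 and 1.01 ± 0.805. In controls these last 3 overlapped, and with desIgf1 the lowest Ccr2 library (4.83) was still below the highest Cxcr5 library (6.37). The order depends on the length used. Divided by the median length of its transcripts, a setting added after the values were seen, Ccr4 was first at 221 CPM per kb in controls and 242 with desIgf1, ahead of Ccr7, and Ccr2 was at 5.97 and 26.2. By that length the mean of Cxcr6 stayed below that of Ccr6 with desIgf1 too, at 46.6 against 59.1. In controls these means were 16.1 and 45.5, so the change of order between Cxcr6 and Ccr6 also depends on the length.

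**Figure D3:**
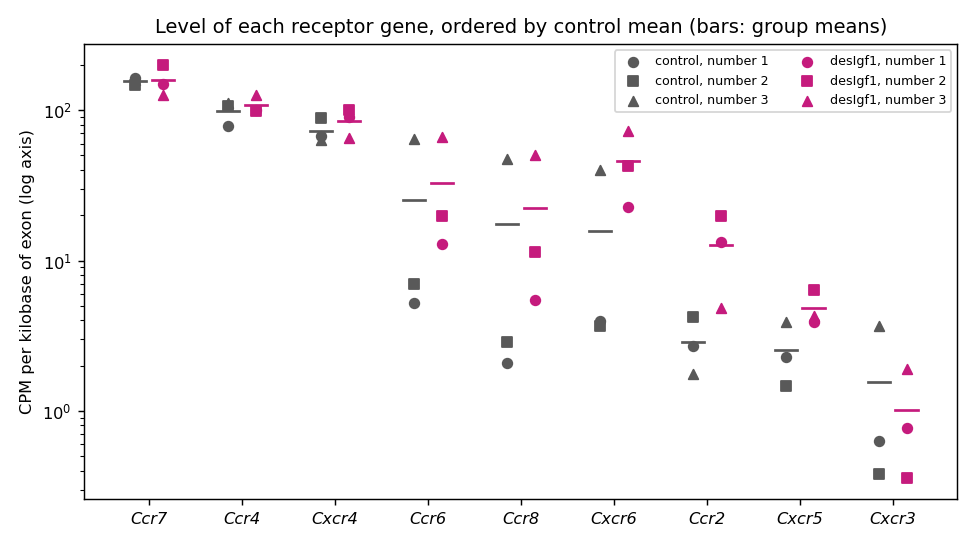
CPM per kilobase of exon (log axis) for each receptor gene in every library, ordered by the control mean; short bars are group means. Ccr7, Ccr4 and Cxcr4 sit between 63.1 and 201 in all libraries, while Ccr6, Ccr8 and Cxcr6 are far higher in control 3 than in the other controls.

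Cxcr6 and Ccr2 belong to a cluster of receptor genes on chromosome 9, with Fyco1, Xcr1, Ccr1, Ccr1l1 and Ccr3. Ccr1, a receptor for inflammatory CC chemokines on myeloid and T cells, was at 5.74, 7.83 and 4.95 CPM in controls and at 9.31, 14.4 and 10.1 CPM with desIgf1 (blocked log2 fold change 0.87 ± 0.16, edgeR adjusted p = 0.109). Ccr3, the eotaxin receptor, was below 1 CPM, at 0.303 ± 0.0564 in controls and 0.822 ± 0.0348 with desIgf1 (SD, n = 3; blocked edgeR adjusted p = 0.167). In each of the 3 pairs Ccr1 and Ccr3 were higher with desIgf1, as Cxcr6 and Ccr2 were and as 20.9% of all tested genes were. Neither Ccr1 nor Ccr3 passed the test, and Ccr3 had only 11 to 38 counts. The cluster was listed around Ccr2 and Cxcr6, and a joint change of its genes was not tested. Ccr1l1 was too low to test and Xcr1 had 0 counts. Fyco1, which is no receptor and surrounds Cxcr6, was at 104, 71.6 and 110 CPM in controls and at 114, 119 and 93.9 CPM with desIgf1, and its pairs differed in sign.

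Of the other chemokine receptor genes, Ccr9, Ccr10, Xcr1 and Ackr1 had 0 counts in all libraries, which allows up to 0.0626 to 0.0868 CPM per library by counting error alone. Cx3cr1, the fractalkine receptor, named after its values were seen, was at 0.197, 0.0469 and 5.99 CPM in controls and at 0.200, 0.285 and 6.86 CPM with desIgf1, high in number 3 as Ccr6 and Ccr8 were.

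Of 16 ligand genes of the 9 receptors 3 were tested, and 1 rose with the block, against 0.181% of all genes. Ccl22, a ligand of CCR4, is a product of dendritic cells and activated T cells. It was at 1.45, 2.09 and 13.5 CPM in controls and at 5.81, 5.63 and 35.2 CPM with desIgf1. The blocked log2 fold change of Ccl22 was 1.58 ± 0.18 (edgeR adjusted p = 0.0496). Its groups overlapped, and without the block it did not pass (edgeR adjusted p = 0.702). The summed dendritic cell markers were at 72.5, 111 and 96.5 CPM in controls and 107, 115 and 153 CPM with desIgf1, with 0 of 6 called, and their part in the Ccl22 difference was not tested. Ccl20, the ligand of CCR6, was lower in each pair where Ccr6 was higher, at 107, 67.3 and 61.6 CPM in controls and 77.6, 26.4 and 51.4 CPM with desIgf1 (blocked -0.69 ± 0.22, edgeR adjusted p = 0.258). Cxcl16, the ligand of CXCR6, averaged 0.467 ± 0.415 CPM in controls and 0.687 ± 0.384 CPM in treated cultures (SD, n = 3; blocked edgeR adjusted p = 0.444). Ccl2, Ccl7 and Ccl12, ligands of CCR2, had 0 counts in all 6 libraries.

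Of 36 genes of receptor signalling and desensitization 35 were tested and 0 passed with or without the block. At an unadjusted p under 0.05 the blocked fit had 8 higher and 3 lower, and the unblocked fit 8 higher and 0 lower. Over all 13846 tested genes the same counts were 1249 and 733 with the block, and 657 and 473 without it. The median log2 fold change was 0.06. Rap1b, a small GTPase of integrin activation, averaged 249 ± 28.5 CPM in controls and 328 ± 41.3 CPM in treated cultures (SD, n = 3; blocked log2 fold change 0.40 ± 0.08, edgeR adjusted p = 0.144). Arrb1, the arrestin that turns receptors off and internalizes them, was at 343 ± 45.5 and 512 ± 152 CPM (0.54 ± 0.12, edgeR adjusted p = 0.155). Rgs2, a regulator that shortens G protein signals, was at 40.8 ± 9.22 and 31.4 ± 7.72 CPM (-0.38 ± 0.10, edgeR adjusted p = 0.178).

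Of 17 transcription factor genes known to act on receptor genes in T cells 16 were tested. With the block 0 rose and 1 fell, against 0.181% and 0.137% of all genes. Klf2, which maintains lymphocyte recirculation genes such as S1pr1, was at 129, 76.8 and 62.8 CPM in controls and at 45.3, 33.9 and 23.1 CPM with desIgf1, with no overlap. Of all 13846 tested genes, 855 were lower without overlap. With the block Klf2 fell by 1.38 ± 0.11 on the log2 scale (edgeR adjusted p = 0.0245). Without the block it did not pass (edgeR adjusted p = 0.378). Id2 was at 240 ± 11.1 and 329 ± 38.9 CPM (edgeR adjusted p = 0.149 with the block). Rora, a partner of RORγt in Th17 cells, was at 302, 330 and 345 CPM in controls and at 434, 617 and 409 CPM with desIgf1 (blocked log2 fold change 0.56 ± 0.14, edgeR adjusted p = 0.179).

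Of 12 other migration genes 12 were tested. With the block 1 rose, Gpr183, and 1, not reported here, fell, against 0.181% and 0.137% of all genes. Gpr183, the oxysterol receptor that positions T cells at the edge of follicles, was at 38.9, 40.3 and 29.3 CPM in controls and at 80.8, 118 and 62.1 CPM with desIgf1, and rose by 1.23 ± 0.13 (edgeR adjusted p = 0.0440). S1pr4, a sphingosine 1-phosphate receptor, was at 119 ± 18.7 and 82.4 ± 5.95 CPM (blocked log2 fold change -0.51 ± 0.10, edgeR adjusted p = 0.117).

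Over the 6 libraries, the genes whose centred log2 CPM lay closest to that of Ccr2, among 11726 genes at a mean of 1 CPM or more, were Plcxd1 (root mean square difference 0.31), Aldoc (0.33), Gm867 (0.37), Pygl (0.37) and Adamtsl5 (0.41). Aldoc and Pygl encode enzymes of glycolysis and glycogen breakdown. Among the 9 receptor genes, Cxcr4 was closest to Ccr2, at 1.01 and place 863 of the 11726 genes, which leave out Ccr2 itself. Ccr8 was farthest of the 9, at 2.32. The difference is not scaled for how much a gene varies, so a nearly flat gene can rank ahead of a strongly varying one. Around their own means Cxcr4 ran from -0.30 to 0.37 and Ccr2 from -1.63 to 1.87. The place of Cxcr4 therefore does not show that it shares the pattern of Ccr2. Receptors outside the 9 were not placed in this way. This likeness is a description over 6 libraries that share their treatment and number.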

How the data were processed

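RNA sequencing libraries from 6 sorted Th17 cell cultures were analysed, 3 with desIgf1 and 3 controls. The authors deposited raw counts, 1 whole number for each Ensembl gene. The submitters' processing notes name HTSeq 0.7.2, STAR 2.5.3, DESeq2 1.18.1, Trim Galore 0.4.5, R 3.4.3, SAMtools 0.1.18 and the build GRCm38 (mm10), with no role for each. Annotation release and strand setting: not given in the sources used here. Reads overlapping no gene (13.5 to 15.7% of uniquely placed reads) and ambiguous reads (0.712 to 0.761%) stayed out. Symbols and coordinates came from GENCODE M21 (37693 identifiers matched) and upstream windows from RefSeq, which held 7 of the 9 receptors.

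Counts were tested in edgeR 4.0.16 (R 4.3.3) with TMM factors, filterByExpr (minimum count 10), robust quasi-likelihood fits, and Benjamini-Hochberg adjustment over all tested genes at 0.05. The fit was checked on simulated data with smaller replicate differences than those of Ccr6, Ccr8 and Cxcr6 in number 3. That check does not speak to genes with differences as large as these. Standard errors are the log2 fold change over the square root of F. CPM use TMM factors, and pair differences use log2 CPM with prior count 2. Deviations of same-numbered libraries from group means correlated at 0.59, 0.32 and 0.55 across genes, so the numbers were taken to pair libraries. No label states this. The blocked fit leaves 2 residual degrees of freedom, against 4 without it. DESeq2 1.42.0, limma 3.58.1 (voom), other size factors, no filter, left-out libraries and a correction for GC content and length were alternatives. No label says that replicates were grown or harvested separately, and the p-values cover only the spread among these 6 libraries. Xist and Ddx3y set number 1 apart from numbers 2 and 3 in both groups, and beyond that the spread may be technical. Named genes were all 9 receptors, and in each fixed list those called plus the 3 with the smallest blocked p. Some genes of the lists are not reported here. Members and lists were chosen with earlier results of these data known.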

Additional observations from a re-analysis of the deposited data

How the results depend on the processing

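With the replicate block, edgeR called 44 genes and 1 receptor gene, against 0 and 0 without the block. Blocked fits with DESeq2 size factors called 38 genes and 1 receptor, without a filter 281 and 1, with the GC and length correction 21 and 0, in DESeq2 606 and 5, and in limma voom 63 and 1. Without the block, no filter gave 16 genes and DESeq2 202, each with 0 receptors, and limma voom and DESeq2 size factors gave 0 and 0. Leaving out 1 library without the block gave 0 to 0 genes and 0 to 0 receptors. Leaving out number 1, 2 or 3 with the block gave 72, 620 and 1069 genes and 1, 1 and 5 receptors. The cause of these differences was not tested. Ccr2, Cxcr4, Cxcr5 and Cxcr6 kept their sign in all 19 alternatives. Ccr7 was -0.00084 with the block, -0.0073 with the block and DESeq2 size factors or in blocked DESeq2, -0.00059 in limma voom and -0.012 with the GC and length correction. With 1 library left out the log2 fold change ran from -0.017 to 0.23 for Ccr4, -0.65 to 2.44 for Ccr6, -0.19 to 0.14 for Ccr7, -1.07 to 3.19 for Ccr8, 1.02 (without desIgf1 library 3) to 3.59 (without control 3) for Cxcr6 and -1.49 to 1.0 for Cxcr3. The ends against the sign of all libraries came without desIgf1 library 3 for Ccr4, Ccr6 and Ccr8, without desIgf1 library 2 for Ccr7 and without control 3 for Cxcr3. With 1 number left out in the blocked fit it ran from -0.22 to 0.16 for Ccr7 and -0.58 to 0.12 for Cxcr3. Depth limits Cxcr3, at 26 to 222 counts, most.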
